A study of Mus musculus with 4 samples.

Results

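The comparison described here is that of granulocyte monocyte progenitors (GMP) labelled Trib1-/- with GMP labelled wild type. GMP are bone marrow progenitors that give rise to neutrophils, monocytes and, through intermediates, to basophils and eosinophils. Trib1 encodes a pseudokinase, a scaffold that lets the ubiquitin ligase COP1 mark C/EBP factors for degradation, and GMP need C/EBP alpha to form. Gene expression differences were taken as Trib1-/- minus wild type on the log2 scale. For each gene the probe set of highest mean was taken among those that name 1 gene, and the gene was used where the highest of the 4 arrays of the series reached the median of all values (3.29, called the floor). This left 11653 of 18193 genes, and the other 6540 stayed below the floor on every array.

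Both GMP samples were unstimulated and untreated sorted cells from mice of a mixed C57BL6J/129SV background, wild type in one case and Trib1-/- in the other. The series also holds wild-type and Trib1-/- cells labelled MDP (in the labels, macrophage dendritic cell) of the same background and likewise without treatment. Total RNA was extracted with Trizol, made into biotinylated cRNA with the NuGEN Ovation system and hybridised to 1 Affymetrix mouse array per group. The sort gates, the age and number of animals behind each sample, and any pooling of animals, were not given in the sources used here. With 1 array per group no difference has a replicate check, no p-value is given, and "higher" and "lower" describe these 2 arrays. A size of at least 2-fold, a log2 difference of 1, was used to count genes. In each set of 4 array values below, the GMP arrays come first, wild type before Trib1-/-, and the MDP arrays follow in the same order.

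The wild-type GMP array differed in some array controls, given here after its correlations. By correlation over all 45101 probe sets, controls included, it was close to Trib1-/- GMP (0.977, the highest of the 6 pairs of arrays, with the MDP pair at 0.976). The wild-type GMP array was farther from the MDP arrays (0.948 and 0.950) than Trib1-/- GMP was (0.964 and 0.967). The bacterial hybridisation controls BioB and BioC, read by 10 probe sets, were 0.28 to 0.45 lower on it than on the Trib1-/- GMP array, by a mean of 0.37. Their mean was 10.42, 10.78, 11.05 and 10.93 over the 4 arrays, so wild-type GMP was the lowest. The 5' probe set of 18S ribosomal RNA read 6.01, 4.98, 4.56 and 4.85, with wild-type GMP highest. The 3' minus 5' signal, a measure of RNA integrity, read 2.01, 1.91, 2.01 and 1.67 for Actb and 1.06, 1.20, 1.44 and 1.66 for Gapdh, with small gaps between the GMP arrays. The part of these array features in the gene differences was not tested, and since the group has no second array, none of the differences can be given without it.

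Trib1 itself did not check the labels. Its probe set with the higher signal read 4.95, 5.10, 5.99 and 5.56, and the other read 4.85, 5.19, 5.13 and 4.71. Neither was lower on the GMP array labelled Trib1-/-. Neither the deleted part of the gene nor the probe positions were stated in the sources used here. All directions below therefore rest on the labels, and Trib1-/- means the array labelled so.

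The cells carried the RNA of GMP on both arrays. Mpo, the myeloperoxidase gene, read 11.90, 11.99, 10.04 and 9.93. Elane, the neutrophil elastase gene, read 9.57, 9.03, 4.24 and 3.50. Kit, the stem cell factor receptor used to sort progenitors, read 6.01, 5.39, 2.43 and 2.69. For all 3 genes both GMP arrays lay above both MDP arrays. All 10 sort and identity genes of GMP listed reached the floor on both GMP arrays, as did 9 on wild-type MDP and 8 on Trib1-/- MDP. Reaching the floor therefore does not set GMP apart from MDP. Between the GMP genotypes 0 of these 10 genes were 2-fold apart. Their median difference was -0.46, with 8 below 0.

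At least 2-fold higher in Trib1-/- GMP were 56 genes (0.481% of those used), and 368 (3.16%) were lower by that size. Lower genes thus made up 86.8% of the 424 genes apart. With each array centred on the median of the genes used, which moves every difference up by 0.10, the counts were 101 higher and 235 lower, so that 69.9% were lower. Over all genes used the median difference was -0.06, and 55.2% of genes lay below 0. Among the 9933 genes at or above the floor on both GMP arrays, 25 were higher (0.252%) and 267 lower (2.69%). In MDP, which shares no array with this comparison, 128 of the genes used were higher (1.1%) and 178 lower (1.53%). The genes next to the threshold show how fine it is, with Psme1 at -0.99994 just short of it and Rbm42 at -1.00006 just past it on the lower side, and Plagl1 at 0.9997 just short of it and Cdc37 at 1.0057 just past it on the upper side.

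**Figure D1:**
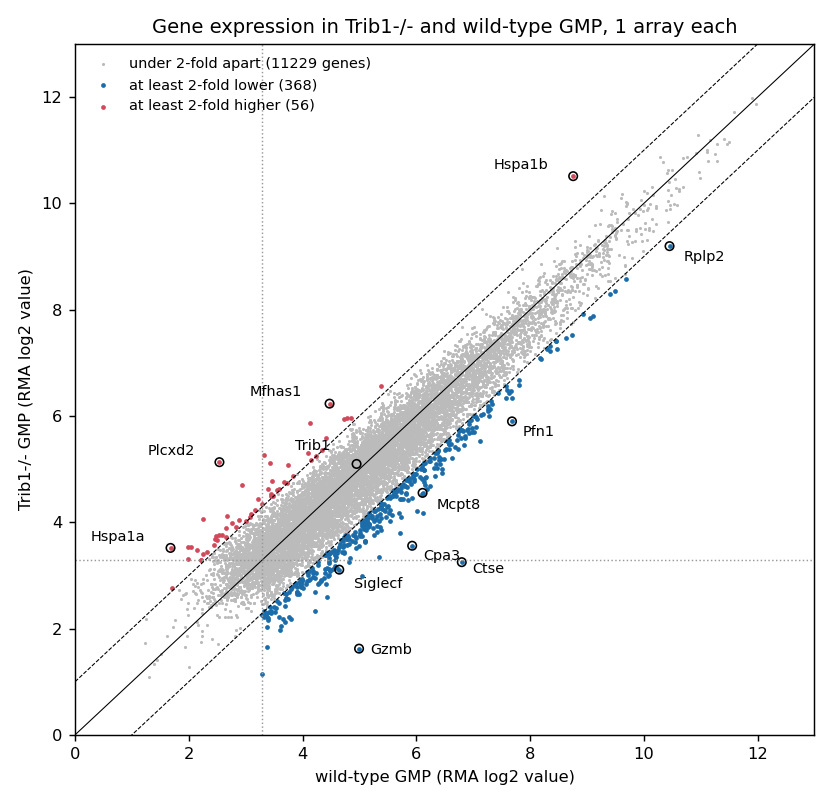
RMA log2 value of each of the 11653 genes used on the wild-type GMP array (horizontal axis) and the Trib1-/- GMP array (vertical axis). Solid line, equal values; dashed lines, 2-fold; dotted lines, the floor of 3.29; blue, the 368 genes at least 2-fold lower; red, the 56 at least 2-fold higher. Gzmb (4.99 and 1.62) lies below the floor on the Trib1-/- array only, and Hspa1b (8.76 and 10.51) lies above the upper dashed line.

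Genes of basophils and mast cells were mostly lower in Trib1-/- GMP. These cells store histamine and proteases in granules and carry the high-affinity IgE receptor. GATA2 together with C/EBP alpha directs the development of basophils from myeloid progenitors. Of 19 genes listed, 17 had a probe set and 10 reached the floor. Among these 10, 4 were at least 2-fold lower (3.16% of all genes used were) and 1 was at least 2-fold higher. Of the lower ones Gzmb, Cpa3 and Mcpt8 are markers given with the definition of this comparison, so the count is no independent support. All 10 reached the floor on wild-type GMP, 9 on Trib1-/- GMP and 5 on each MDP array. The median difference was -0.93, against -0.09 in MDP. Over all 17 genes with a probe set, with no floor, the median was -0.61. Raised to the linear scale and summed, the 10 genes read 938, 510, 265 and 284 over the 4 arrays. Wild-type GMP was thus highest, and Trib1-/- GMP lay between it and the MDP arrays. In sorted cells measured in bulk, fewer cells of a type and less RNA per cell cannot be told apart.

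The bases before the transcription start of Cpa3 and Ms4a2 are printed to show where the GATA motif lies in 2 genes of this group whose differences went the same way. They come from RefSeq on build GRCm38.p6, run 5' to 3' for 250 bases up to the start site, and carry the motif AGATAA, read on either strand, in capitals.

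Cpa3, chr3:20242182-20242431 (minus strand): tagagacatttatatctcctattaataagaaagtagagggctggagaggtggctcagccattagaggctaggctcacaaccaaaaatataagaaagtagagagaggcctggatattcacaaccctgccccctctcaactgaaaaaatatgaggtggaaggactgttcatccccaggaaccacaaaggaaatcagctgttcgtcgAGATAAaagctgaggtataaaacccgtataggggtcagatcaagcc

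Ms4a2, chr19:11623720-11623969 (minus strand): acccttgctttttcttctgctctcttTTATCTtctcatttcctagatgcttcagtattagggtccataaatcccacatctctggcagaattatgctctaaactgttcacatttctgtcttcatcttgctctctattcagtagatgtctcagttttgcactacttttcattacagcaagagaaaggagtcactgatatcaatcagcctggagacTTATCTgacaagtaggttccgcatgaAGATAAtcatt

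In Cpa3 the motif begins at position -46 from the start, and a TATA box (TATAAA) begins at -31. Ms4a2 holds it 3 times, at -224, -37 and -11. Fcer1a held it at -92, beside a C/EBP motif (TTGCNNAA) at -118. Windows from 250 bases before to 50 after the start were searched for 14 genes of the basophil, eosinophil and heat shock groups, all of which had one in the table. Of all 32851 RefSeq windows of this length, 11.2% hold the GATA motif, 10.8% the C/EBP motif and 13.6% the TATA box. No match was found to the GATA motif in the windows of Gzmb, Mcpt8, Hdc, Ccl9 or Gata2, which says only that these letters are not in those windows.

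Of the basophil and mast cell genes used, the granule proteases differed most. Gzmb, which encodes granzyme B, read 4.99, 1.62, 0.79 and 1.41. Only the wild-type GMP array was above the floor, the difference was -3.37, and with the low value raised to the floor it was -1.71. Cpa3, the mast cell carboxypeptidase gene, read 5.93, 3.56, 2.51 and 2.65, a difference of -2.37 with both GMP arrays above the floor and both MDP arrays below it. Mcpt8, a serine protease gene of mouse basophils, read 6.11, 4.55, 4.16 and 3.86, a difference of -1.56. In each of the 3 genes Trib1-/- GMP lay nearer to the MDP arrays than to wild-type GMP.

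Gzmb and Mcpt8 belong to a cluster of mast cell protease and granzyme genes that lie next to each other. Of 12 cluster genes with a probe set, 3 reached the floor. The third was Ctsg, which encodes the neutrophil protease cathepsin G and lies beside Mcpt8. It read 10.54, 9.99, 7.11 and 6.997, a difference of -0.55, so the neighbours differed by unequal amounts. The other 9, namely Mcpt1, Mcpt2, Mcpt4, Gzme, Gzmd, Gzmg, Gzmn, Gzmf and Gzmc, were below the floor on all 4 arrays.

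Genes for histamine synthesis and the IgE receptor were lower by smaller amounts. Hdc, the histidine decarboxylase gene, read 6.91, 5.75, 2.86 and 2.74, a difference of -1.16, and its second probe set gave -1.26. Fcer1a, the alpha chain of the IgE receptor, read 4.33, 3.38, 1.94 and 1.13 (-0.95). Ms4a2, the beta chain, read 5.40, 4.57, 2.61 and 2.55 (-0.83). On all 3 genes Trib1-/- GMP lay below wild-type GMP and clearly above both MDP arrays. Gata2, the transcription factor gene, read 7.11, 6.198, 4.99 and 4.54 (-0.91), with -0.54 on its second probe set. Ccl9, a chemokine gene, read 8.58, 7.79, 6.56 and 6.998 (-0.79).

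Not every gene of the list followed. Hpgds, the haematopoietic prostaglandin D synthase gene, read 3.72, 4.75, 4.88 and 4.33 and was the member at least 2-fold higher, by 1.02. Mitf, a transcription factor of mast cells, read 5.91, 5.96, 6.07 and 6.22, with no array standing apart. The mast cell genes Cma1, Tpsb2, Tpsab1 and Mcpt4, together with Il4, Cd200r3 and Alox5, did not reach the floor on any array. The highest value among the mast cell chymase and tryptase genes was 2.95, for Cma1 in Trib1-/- GMP.

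Eosinophil genes were few. Of 12 listed, 8 had a probe set and 4 reached the floor, and 2 of these were at least 2-fold lower (3.16% of all genes used). Their median was -0.77, and over all 8 with no floor -0.43. Of the 2 lower genes Siglecf is a marker given with the definition of this comparison, so neither the count nor the median is independent support. Siglecf, a sialic acid receptor of eosinophils, read 4.64, 3.11, 1.89 and 2.45, a difference of -1.54, or -1.36 with the low value raised to the floor. Prg2, which encodes eosinophil major basic protein, read 6.72, 5.55, 2.58 and 2.16 (-1.17). Epx, the eosinophil peroxidase gene, read 5.47, 5.10, 2.16 and 3.54 (-0.37), and Il5ra, the interleukin 5 receptor gene, read 4.21, 4.19, 4.25 and 4.32. Siglecf, Prg2 and Epx were thus above MDP on both GMP arrays, while Il5ra was alike on all 4. Prg3, Ccr3, Alox15 and Rnase2a stayed below the floor.

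**Figure D2:**
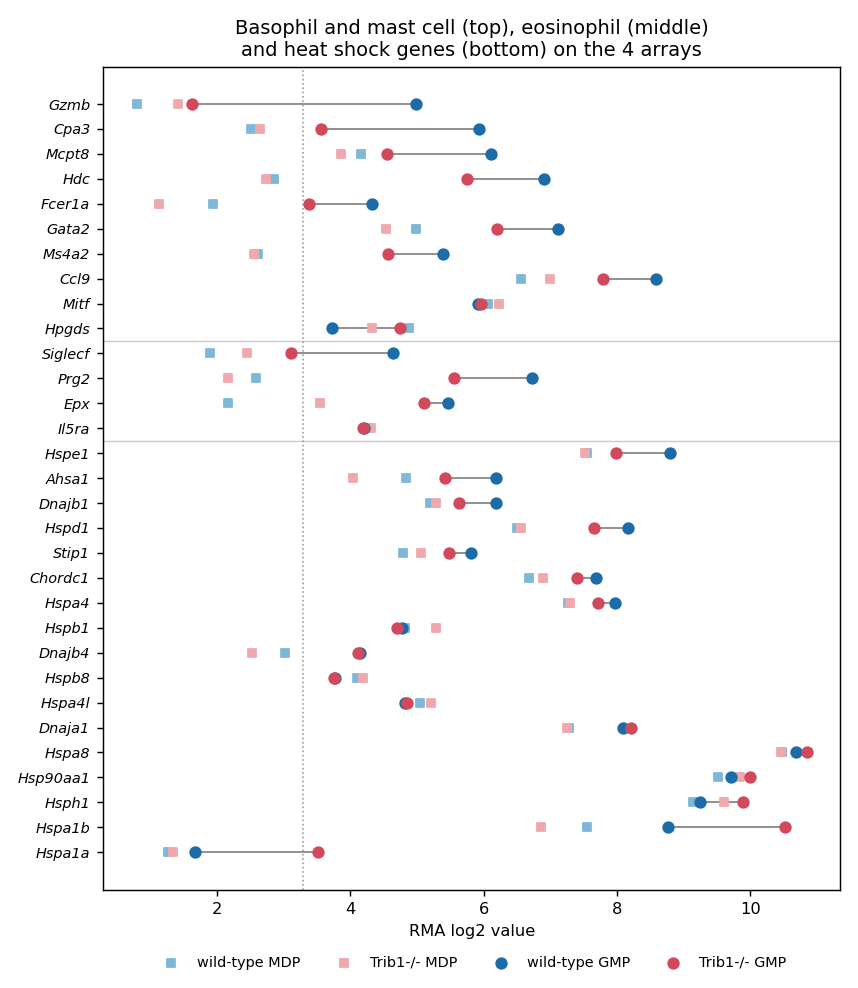
RMA log2 values of the basophil and mast cell genes (top), eosinophil genes (middle) and heat shock genes (bottom) used, on the 4 arrays; circles are GMP, squares MDP, blue wild type and red Trib1-/-, a grey line joins the GMP arrays, and the dotted line is the floor. The basophil genes from Gzmb (4.99 to 1.62) to Ccl9 (8.58 to 7.79) lie to the left in Trib1-/- GMP, and of the heat shock genes Hspa1b (8.76 to 10.51) and Hspa1a (1.68 to 3.52) lie farthest to the right.

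Genes of other blood cells that a GMP gate could hold differed less. Late neutrophil genes had a median of -0.10 over 9 used, with 0 of them 2-fold apart, and S100a8 was the lowest (4.51, 3.53, 2.51 and 2.03, a difference of -0.98). Of 20 monocyte and macrophage genes, with a median of 0.02, 1 was at least 2-fold lower, the interferon-induced membrane gene Ifitm3 (5.81, 4.79, 3.94 and 4.41). Dendritic cell genes had a median of 0.04 over 13 and resident macrophage genes -0.03 over 16, with 0 apart in each. Many of these genes were weak in GMP. Of the 13 dendritic cell genes 7 reached the floor on wild-type GMP, 8 on Trib1-/- GMP and 12 on wild-type MDP. Of the 16 resident macrophage genes 6, 9 and 16 did so on the same arrays. Both medians therefore say little about such cells in GMP. Of the lymphoid and natural killer cell genes 1 of 13 was at least 2-fold lower, Cd27, a receptor also carried by early progenitors (5.87, 4.83, 3.65 and 2.41). Since 3.16% of all genes used were lower by that size, 1 gene in a list this short says little about the list. The T and natural killer cell genes Gzma, Ccl5, Ncr1 and Cd3g did not reach the floor on any array. Nor did the erythroid genes Hba-a1, Alas2 and Klf1, but 7 of 17 erythroid and megakaryocyte genes with a probe set were used. Of these 7 genes, 5 reached the floor on wild-type GMP and 7 on Trib1-/- GMP. Their median was 0.10, with a range from -0.82 to 0.69 and 0 of them 2-fold apart. Medians this close to 0 take either sign with the scaling, since centring moves each up by 0.10.

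GMP make the proteins of primary granules. Of 15 genes of that group used, 12 lay below 0 and 0 were 2-fold apart, with a median of -0.54 and a range from -0.99 to 0.25. Nkg7, a granule membrane gene of cytotoxic and myeloid cells, read 8.71, 7.73, 4.10 and 3.49 (-0.99). Cst7, the cystatin F gene, read 6.89, 6.03, 3.89 and 4.19 (-0.86). Hp, the haptoglobin gene, read 6.49, 5.70, 3.88 and 4.16 (-0.79). In these 3 genes both GMP arrays stayed far above MDP. Prtn3, the proteinase 3 gene, differed by -0.60, Elane by -0.54, Ms4a3, a marker gene of GMP, by -0.50, and Srgn, whose product packs granule proteases, by -0.15, while Mpo (0.09) and the chaperone gene Calr (0.12) lay above 0.

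None of 15 transcription factors of myeloid cells was 2-fold apart, and 11 lay below 0, with a median of -0.49, or -0.27 over the 10 left without cross-hybridising probe sets. Irf8, which directs monocyte and dendritic cell fate, read 5.51, 4.81, 7.81 and 7.77 (-0.70), and Gfi1, a repressor needed for neutrophils, read 6.73, 6.08, 2.14 and 1.70 (-0.66). Myc read 7.56, 6.78, 5.46 and 5.29 (-0.78). For Gfi1 and Myc both GMP arrays were above both MDP arrays, and for Irf8 both were below. Spi1, which encodes PU.1, differed by -0.37, Runx1 by -0.11, Myb by 0.14 and Klf4, a monocyte factor, by 0.31. Of 14 receptors for growth factors and cytokines 0 were 2-fold apart and the median was -0.13. Csf1r, the macrophage colony stimulating factor receptor gene, read 5.997, 6.01, 7.82 and 7.81, and Csf3r, the granulocyte receptor gene, 4.25, 4.55, 3.34 and 2.82.

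Among the Tribbles, COP1 ligase and C/EBP genes, 1 of 12 used was at least 2-fold lower (3.16% of all genes used) and 1 at least 2-fold higher (0.481%). Cul4a, a scaffold gene of the COP1 ligase complex, read 5.22, 4.12, 3.54 and 3.82 (-1.10), while its relative Cul4b differed by -0.12 and Ddb1, the adaptor gene, by -0.08. Trib2, a close relative of Trib1, read 2.49, 3.67, 2.76 and 3.15, a difference of 1.18 that was 0.38 with the value below the floor raised to it. Cop1, the ligase gene, read 7.36, 7.76, 7.83 and 8.04 (0.40), with wild-type GMP the lowest. Cebpa, the substrate gene, read 8.54, 7.90, 6.89 and 6.91 (-0.64), Cebpd 4.36, 3.76, 3.19 and 2.45 (-0.60), and Cebpb 4.48, 4.53, 4.57 and 4.27 (0.05). These are RNA values, so the amount of C/EBP protein was not measured. Trib3 stayed below the floor.

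The higher genes included inducible heat shock genes. Hspa1a and Hspa1b encode HSP70 chaperones whose transcription rises within minutes of heat or other protein stress through heat shock factor 1. Hspa1b read 8.76, 10.51, 7.55 and 6.87, so Trib1-/- GMP was the highest array by 1.76, and its other probe sets gave 1.63 and 1.64. Hspa1a read 1.68, 3.52, 1.26 and 1.34, and only the Trib1-/- GMP array was above the floor. The difference of 1.84 was 0.23 with the low value raised to the floor. The sequences before the start of both genes are shown because they are near-identical copies, with 247 of 250 bases the same (98.8%). The heat shock element motif searched, GAANNTTC, a palindrome read on either strand, is in capitals, in RefSeq windows of build GRCm38.p6.

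Hspa1a, chr17:34972157-34972406 (minus strand): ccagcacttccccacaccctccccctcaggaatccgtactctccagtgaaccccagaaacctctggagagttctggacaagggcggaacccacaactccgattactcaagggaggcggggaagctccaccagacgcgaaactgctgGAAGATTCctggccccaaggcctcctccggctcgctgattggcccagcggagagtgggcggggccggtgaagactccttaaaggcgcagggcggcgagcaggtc

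Hspa1b, chr17:34959239-34959488 (minus strand): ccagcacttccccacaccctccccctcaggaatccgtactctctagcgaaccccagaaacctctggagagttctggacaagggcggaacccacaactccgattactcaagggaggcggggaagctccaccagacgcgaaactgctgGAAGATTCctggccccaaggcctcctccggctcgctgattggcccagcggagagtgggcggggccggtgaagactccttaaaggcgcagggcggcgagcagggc

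Both hold 1 match to GAANNTTC, which begins at -104. Of all RefSeq windows 7.86% hold one, among them those of Hspe1 (at -84), Hsph1 (at 42 past the start) and Siglecf (at 28 past the start). Copies this alike may share signal on an array, and how far the probe sets separate them was not tested.

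Other chaperone genes did not follow Hspa1b. Of 17 heat shock genes used, 2 were at least 2-fold higher, Hspa1a and Hspa1b (0.481% of all genes used were). At least 2-fold lower were 0, and the median was -0.03. Hspa1b is a marker given with the definition of this comparison and Hspa1a may share its signal, so the count is no independent support. Hsph1, the HSP110 gene, came next with 9.24, 9.88, 9.13 and 9.60 (0.64), and Hsp90aa1, an HSP90 gene, read 9.71, 9.998, 9.51 and 9.84 (0.29). Dnajb1, the HSP40 gene that heat shock factor 1 also induces, read 6.18, 5.63, 5.19 and 5.28 (-0.55). Hspe1 and Hspd1, the paired mitochondrial chaperones, read 8.79, 7.99, 7.56 and 7.52 (-0.80) and 8.17, 7.66, 6.51 and 6.57 (-0.51). Genes of the endoplasmic reticulum stress response were lower in 18 of 22 cases, by a median of -0.31 (-0.56 without cross-hybridising probe sets), with 0 of them 2-fold apart, and Sdf2l1, a chaperone partner there, was the lowest (5.78, 4.81, 2.78 and 2.69).

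Immediate early genes, which cells switch on within minutes of a stimulus or of handling, were mixed, with 15 of 22 below 0 and a median of -0.38. That median was -0.17 without cross-hybridising probe sets and -0.66 with a floor at the 75th percentile. At least 2-fold lower were 3 of the 22, where 3.16% of all genes used were. Dusp1, a phosphatase gene that shuts off MAP kinases, read 9.05, 7.85, 8.58 and 7.94 (-1.20). Zfp36, whose product destabilises inflammatory messages, read 5.39, 4.25, 6.29 and 6.30 (-1.14). Ier3 read 6.25, 5.14, 4.36 and 3.998 (-1.10). Trib1-/- GMP was the lowest of the 4 arrays for Dusp1 and Zfp36, but not for Ier3, where wild-type GMP stood alone. Fos differed by -0.84 and Egr1 by -0.60, while Jund (-0.01) and Fosl2 (0.00) were alike and Atf3 (0.54) and Nr4a2 (0.53) lay above 0. The ERK pathway and its feedback genes had a median of 0.11 over 16, with Dusp6 at 0.07 and Spry4 at 0.16, and Ier3 was the 1 member at least 2-fold apart. The chemokine gene Ccl3 read 6.41, 5.24, 6.51 and 6.33 (-1.17), the 1 NF-kB gene of 17 at least 2-fold lower, and its neighbour Ccl4 read 6.16, 5.18, 6.1997 and 6.35 (-0.98).

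Genes of the cell cycle mostly lay below 0. Of 27 mitosis genes 6 were at least 2-fold lower (3.16% of all genes used were), 0 were higher, and the median was -0.50, or -0.25 without cross-hybridising probe sets and -0.33 with probe sets averaged. Ube2c, an ubiquitin enzyme gene of the anaphase promoting complex, read 6.45, 5.01, 6.14 and 5.71 (-1.45). Pttg1, the securin gene, read 7.27, 6.004, 5.62 and 4.81 (-1.26), though another of its probe sets gave -0.22. Birc5, the survivin gene, read 7.25, 6.13, 6.82 and 6.88 (-1.12), and Cdk1 read 7.06, 5.95, 6.37 and 6.25 (-1.11). For Ube2c, Birc5 and Cdk1 the Trib1-/- GMP array was the lowest of the 4. Mki67, the proliferation marker gene, read 8.03, 8.10, 8.63 and 8.71, and Top2a 7.67, 7.22, 7.96 and 8.09. Of 28 S phase genes 3 were at least 2-fold lower with a median of -0.30, namely Dut, which removes dUTP (8.74, 7.52, 6.70 and 6.997), Tk1, thymidine kinase (5.73, 4.65, 5.27 and 5.59), and Ccne2, a cyclin E gene (3.99, 2.93, 2.79 and 2.94). The second probe set of Dut gave 0.06.

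**Figure D3:**
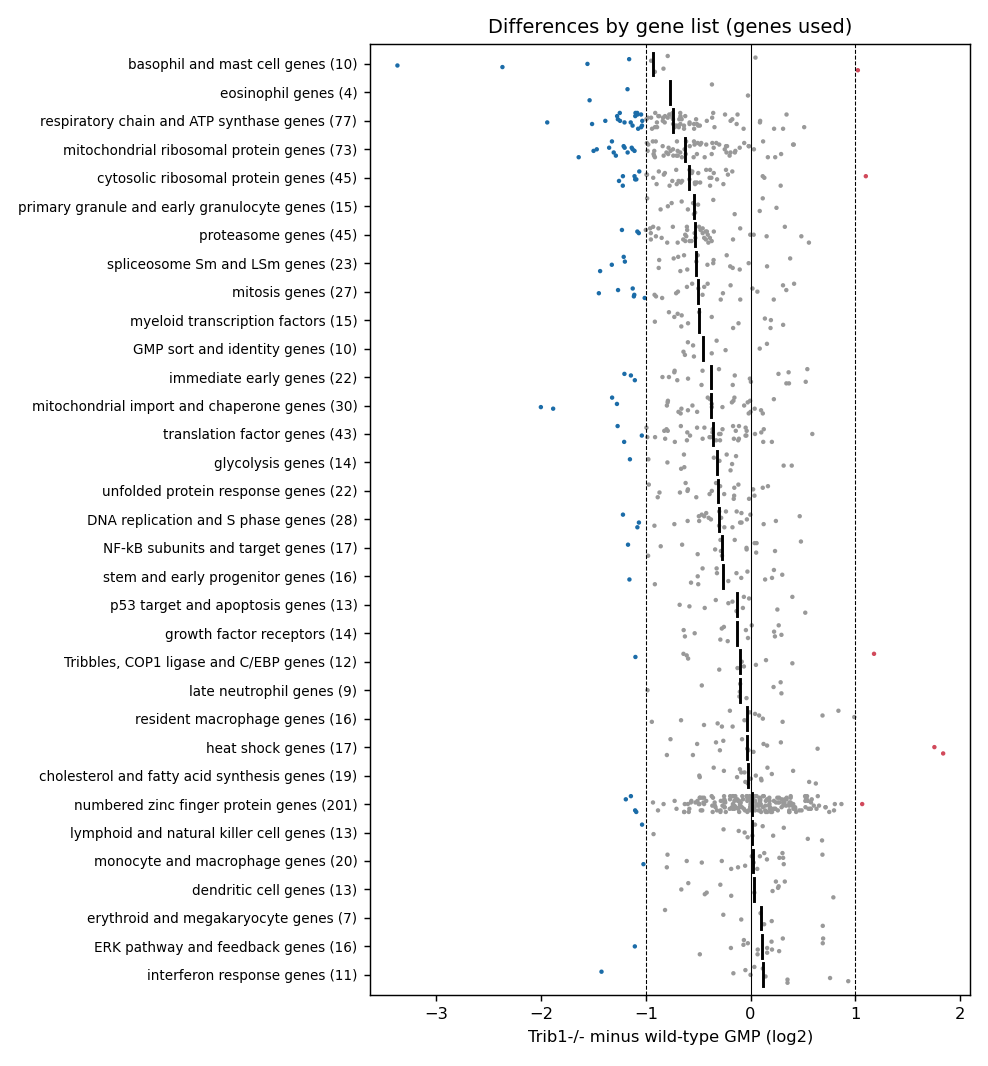
Difference of each gene (point; blue at least 2-fold lower, red at least 2-fold higher) in Trib1-/- against wild-type GMP on the log2 scale, by gene list, with the number of genes used in brackets; the black bar is the list's median, dashed lines mark 2-fold and lists run from the lowest median at the top. Basophil and mast cell genes are at -0.93, and both ribosomes, the respiratory chain and the proteasome are at -0.74 to -0.53. Mitochondrial import and chaperone genes are at -0.38 and numbered zinc finger genes at 0.01.

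Many of the lower genes belonged to families whose products are needed in every cell. Cytosolic and mitochondrial ribosomes, the respiratory chain with ATP synthase, mitochondrial import, the proteasome, translation factors and the Sm and LSm proteins of the spliceosome together made up 336 genes. Of these 301 lay below 0, 53 were at least 2-fold lower (15.8%, against 3.16% of all genes used), 1 was at least 2-fold higher, and the median was -0.60. Wild-type GMP was the highest of the 4 arrays in 289 of the 336, and in 63 of the 201 numbered zinc finger genes used. The share over all genes used is not given here, so the count of 289 cannot be called particular to these families. In MDP the 336 genes had a median of -0.11, with 9 at least 2-fold lower (2.68%, against 1.53% of all genes used). With the arrays centred each family median kept its sign, from -0.64 for the respiratory chain to -0.26 for translation factors.

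The respiratory chain and ATP synthase had the lowest median of these families (-0.74), with 19 of 77 genes at least 2-fold lower. Atp5e, the epsilon subunit of ATP synthase, read 6.11, 4.17, 4.26 and 3.55 (-1.94). Sdhc, a membrane anchor of succinate dehydrogenase, read 5.69, 4.18, 4.57 and 4.29 (-1.51), and Ndufb7, a complex I subunit, read 6.84, 5.46, 5.18 and 5.33 (-1.39). In all 3 genes wild-type GMP was the highest array. The assembly and import genes showed the same arrangement, with Higd2a, an assembly factor of complex IV, at 5.35, 3.35, 3.39 and 2.83 (-2.002), Timm13 at 4.22, 2.34, 2.38 and 2.92 (-1.88) and Chchd4, of the intermembrane space import route, at 6.42, 5.10, 5.26 and 5.52 (-1.32).

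The mitochondrial ribosome showed a median of -0.63, and 13 of its 73 genes were at least 2-fold lower. Mrpl23 read 5.73, 4.09, 6.13 and 6.27 (-1.64), so here Trib1-/- GMP stood alone below the others. Mrps6 read 5.25, 3.76, 3.72 and 3.57 (-1.499) and Mrpl52 5.93, 4.46, 5.19 and 4.41 (-1.47), with wild-type GMP the highest. In the cytosolic ribosome the median was -0.58, and 7 of 45 genes were at least 2-fold lower and 1 higher. Rplp2 read 10.45, 9.20, 8.93 and 8.54 (-1.26), Rps14 9.10, 7.88, 7.57 and 6.67 (-1.22) and Rpl8 7.80, 6.59, 6.03 and 5.76 (-1.22). The higher one, Rps25, read 4.85, 5.95, 6.92 and 6.59 (1.10), with wild-type GMP the lowest array. Ribosomal protein genes have many near-identical pseudogenes, so signal of 1 gene can include that of copies.

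Of all genes used 3.16% were at least 2-fold lower, the share to set beside the counts that follow. For the proteasome the median was -0.53, and 3 of 45 genes were at least 2-fold lower. Among them was Psmb8, an immunoproteasome subunit (6.85, 5.63, 5.66 and 5.61). Of the Sm and LSm genes 4 of 23 were at least 2-fold lower, at a median of -0.52 (-0.21 over the 18 left without cross-hybridising probe sets), among them Lsm2 (5.09, 3.65, 3.10 and 3.26) and Snrpd3 (8.47, 7.26, 6.50 and 5.91). Of the translation factors 3 of 43 were at least 2-fold lower, at a median of -0.36, among them Eif4e2, a cap-binding protein gene (6.98, 5.71, 5.41 and 5.42). For all 4 genes wild-type GMP was the highest array by more than 1. Of the glycolysis genes 1 of 14 was at least 2-fold lower, at a median of -0.32 (-0.18 over the 7 left without cross-hybridising probe sets), namely Bsg, a chaperone of lactate carriers (5.08, 3.93, 3.71 and 1.99). Among 201 numbered zinc finger genes 4 were at least 2-fold lower (1.99%) and 1 higher (0.498%), and their median was 0.01. Genes for cholesterol and fatty acid synthesis had a median of -0.02 with 0 of 19 apart.

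The lower genes were short. Gene span, the distance from the first to the last base of the gene in the RefSeq table, was known for 11627 of the genes used (99.8%). With the genes split by span into 4 sets of equal size, in the shortest set (up to 9996 bases) 196 of 2907 genes were at least 2-fold lower (6.74%), in the next 91 (3.13%), then 50 (1.72%), and in the longest (from 58161 bases) 31 (1.07%). The median difference went from -0.14 in the shortest to 0.06 in the longest set. The genes at least 2-fold higher showed no such order, with 15, 8, 14 and 19 in the same sets. The median span was 9233 bases for lower genes, 36056 for higher genes and 24193 for all.

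The order by span did not rest on the families above. Without them 153 of 2694 genes (5.68%) of the shortest set and 31 of 2895 (1.07%) of the longest were at least 2-fold lower. It was present at high signal, where among the genes in the highest of 4 sets by mean GMP level 7.88% of the shortest genes and 0.251% of the longest were lower. In MDP the shares were 2.65% (77 genes) and 0.860% (25 genes). The part of the RNA amplification or of the array controls in this order was not tested.

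**Figure D4:**
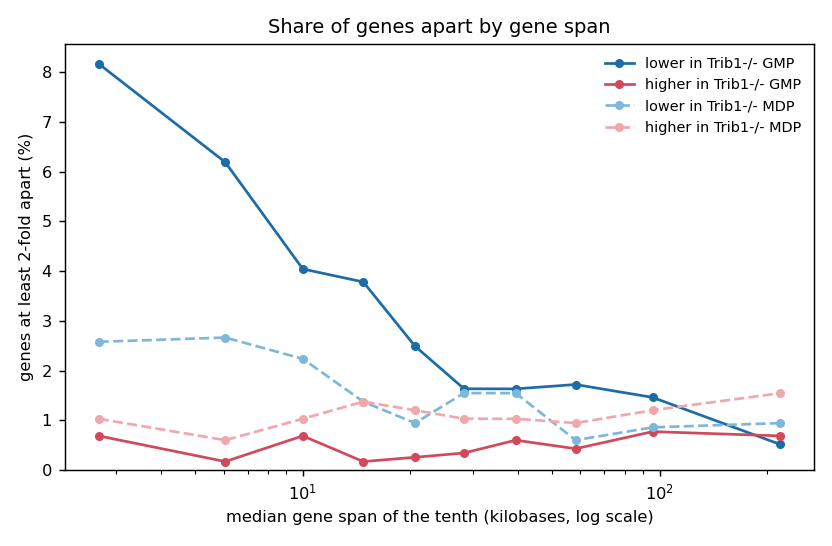
Share of genes at least 2-fold apart (%) in 10 sets of equal size by gene span, plotted at the median span of each set in kilobases (log scale); solid lines are GMP, dashed lines MDP, blue lower and red higher in Trib1-/-. The share lower in Trib1-/- GMP goes from 8.17% in the set with the shortest genes to 0.516% in that with the longest, while the other 3 lines stay at or below 2.67%.

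The place of each array among the 4 was counted for the genes apart. Since genes were picked by a difference from wild-type GMP, that array tends to lie at the end. For 339 of the 368 lower genes (92.1%) wild-type GMP was the highest array, and these 368 genes stood at a median of 1.26 above the MDP mean in wild-type GMP and 0.06 in Trib1-/- GMP. For 49 of the 56 higher genes (87.5%) wild-type GMP was the lowest array, at a median of -0.87 from the MDP mean, against 0.32 for Trib1-/- GMP. In MDP the corresponding shares, with wild-type MDP as the extreme array, were 114 of 178 (64.0%) and 104 of 128 (81.2%). Trib1-/- GMP was below the floor for 101 of the 368 lower genes, and wild-type GMP for 31 of the 56 higher ones.

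The genes with the largest higher values follow. Plcxd2, a phospholipase C domain gene, read 2.54, 5.13, 5.62 and 5.66, a difference of 2.59. With the low value raised to the floor it was 1.84. The second probe set of Plcxd2, above the floor on all arrays, read 4.51, 4.97, 4.66 and 4.72, a difference of only 0.47. Mfhas1 read 4.47, 6.23, 7.12 and 6.68 (1.76), and Strip2 2.94, 4.71, 5.69 and 6.19 (1.77). Slc12a3, the sodium chloride cotransporter gene of the kidney, read 3.32, 5.27, 5.19 and 4.11 (1.95). Bcl6, a transcriptional repressor of lymphoid and myeloid cells, read 3.47, 4.78, 4.77 and 5.04 (1.31). With probe sets averaged Plcxd2 was at 1.53, Mfhas1 at 0.95 and Bcl6 at 0.59. For Mfhas1 and Bcl6 the second probe set, at 0.14 and -0.12, was below the floor on all arrays. On all 5 genes wild-type GMP was the lowest array. Pik3r3, a regulatory subunit of PI3 kinase, read 2.24, 4.06, 2.95 and 3.14 (1.81), and Tshb, a subunit of thyrotropin, 4.13, 5.86, 4.91 and 5.09 (1.73), where Trib1-/- GMP was the highest array and wild-type GMP the lowest. The rest of the 15 largest, Nid1, Gabra2, Slc23a3, Cfap69, Cxcl10 and Myom2 beside Hspa1a and Hspa1b, differed by 1.32 to 1.84, and raised to the floor Nid1 (0.25), Gabra2 (0.25), Cxcl10 (0.19) and Myom2 (0.02) were near 0.

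Among the lower genes beyond the groups above, Pfn1, an actin-binding protein gene, read 7.68, 5.90, 5.99 and 5.15 (-1.78), and Smim4, of a mitochondrial membrane protein, 7.13, 5.54, 3.87 and 4.54 (-1.59). Aaas, a nuclear pore gene, read 5.04, 2.99, 3.11 and 4.11 (-2.05). Coa3, an assembly factor of complex IV, read 6.02, 4.204, 4.50 and 4.04 (-1.81), but its second probe set gave -0.13. In these 4 genes wild-type GMP was the highest array. Tmem107, Cd72 and Hsd3b7 read 3.29, 3.38 and 3.60 in wild-type GMP, at or little above the floor, and with lower values raised to it they differed by -0.01, -0.09 and -0.31.

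**Figure D5:**
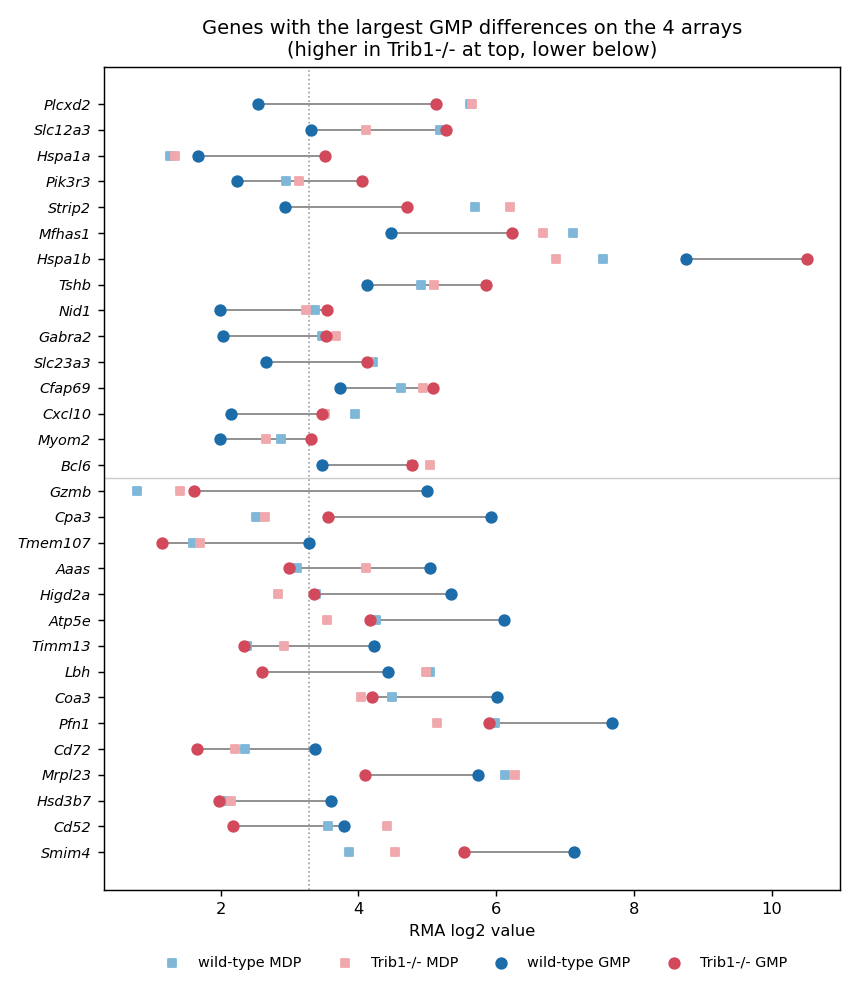
RMA log2 values on the 4 arrays of the 15 genes with the largest difference in each direction whose probe sets have 1 direction, those higher in Trib1-/- GMP at the top; circles are GMP, squares MDP, blue wild type, red Trib1-/-, and the dotted line is the floor. For Plcxd2 and Mfhas1 wild-type GMP lies left of the other 3 arrays, for Gzmb and Cpa3 it lies right of them, and for Lbh and Mrpl23 the Trib1-/- GMP value (2.60 and 4.09) is the one that stands apart.

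A small set of genes set the Trib1-/- GMP array apart from all 3 others, and these were picked after their values were seen. On that array 5 genes were at least 2-fold above each other array and 22 at least 2-fold below, whereas on the wild-type GMP array 198 were above and 16 below. The 5 were Hspa1a, Hspa1b, Ccdc149, Gm1123 and 5730419F03Rik. Of the 22, Lgals1, the galectin 1 gene, read 9.50, 8.34, 10.18 and 9.61, and both of its probe sets were lower (-1.15 and -1.26). S100a10, a calcium-binding protein gene, read 5.72, 3.81, 6.36 and 5.58, but of its 3 probe sets above the floor the highest gave 0.09. Ptpn6, which encodes the phosphatase SHP-1 that restrains myeloid signalling, read 5.12, 4.03, 5.25 and 5.13 (-1.08, other probe set -0.38). Cd52, a surface glycoprotein gene of leukocytes, read 3.80, 2.19, 3.57 and 4.42 (-1.61), and Emp3, a membrane protein gene, 5.97, 4.77, 6.30 and 5.83 (-1.19). Lbh, a developmental regulator, read 4.43, 2.60, 5.04 and 4.98, with a second probe set at -0.01. Ccl3, Zfp36 and Mrpl23, described above, belong to the 22 as well, as does Ctse, the cathepsin E gene. Ctse read 6.80, 3.25, 5.51 and 4.43, a difference of -3.55, but its second probe set gave 0.60.

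Probe sets of 1 gene gave the only spread that could be measured within the comparison. Its SD was 0.372 over 4922 genes read by more than 1 probe set that reached the floor, a value that holds nothing of the spread from animal to animal, sort to sort or array to array. Of the 424 genes apart, 120 had several probe sets, all of them in 1 direction for 80 (66.7%) and all at least 2-fold for 23. Hspa1b and Hdc were of this last kind, and so were Rps9, Rps15 and Lgals1.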

How the data were processed

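Per the submitters' processing notes the authors made the values with RMA, in a version that the sources used here do not give. RMA corrects background, makes the arrays' distributions alike and summarises each probe set, so a difference in total RNA per cell cannot be seen. The deposited values are taken as log2, a scale inferred from their range (0.14 to 14.5). The array medians were 3.27, 3.29, 3.31 and 3.27. The number of arrays limits the precision. Of 45101 probe sets, 64 controls were left out of gene counts. In the platform annotation 1 gene symbol was given for 34945, several for 932, and 9160 were absent from it. Gene identifiers of 34741 matched the RefSeq table, which changed 0 symbols.

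Differences, counts, medians and gene spans were computed in Python 3.11.15 with pandas 2.3.3 and NumPy 2.4.6, cyclic loess in R 4.3.3 with limma 3.58.1, and figures in matplotlib 3.10.9. Counting was tested on simulated data. The members and the 33 gene lists were chosen with earlier results of these data known. Genes named were Trib1, 5 markers, the 15 largest differences each way where all probe sets reaching the floor have 1 direction, members of each list that were apart (at most 6) or otherwise its 3 largest, and all members of 6 lists. Others, such as Mki67, Ccl4 and Ptpn6, were chosen after their values were seen. Gene span took the place of protein length, for which no table was used here. No source used here names the build behind the array, and the promoter windows are RefSeq's (GRCm38.p6). Alternatives were no floor, a 75th percentile floor (4.78), values raised to the floor, probe sets averaged, no cross-hybridising probe sets, cyclic loess, centring, 32 added to linear values, and sizes of 1.5-fold and 4-fold.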

Additional observations from a re-analysis of the deposited data

Results flagged for a closer look

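Genes at least 2-fold apart in GMP and at least 2-fold apart the other way in MDP numbered 8. In none of them was the difference between the progenitors tested. They were 7 of the 368 genes lower in GMP and, of the 56 higher in GMP, Slc12a3. In MDP 1.1% of all genes used were at least 2-fold higher and 1.53% lower. The number apart in the same direction in both is not given here, so the 8 cannot be read as an opposite response. Lower in Trib1-/- GMP and higher in Trib1-/- MDP were Aaas, a nuclear pore gene (-2.05 in GMP and 1.01 in MDP), Adal, an adenosine deaminase-like gene (-1.40 and 1.03), Atpsckmt, a methyltransferase gene of ATP synthase (-1.43 and 1.502), Bphl, a hydrolase gene (-1.09 and 1.19), Gdpd3, a phosphodiesterase gene (-1.22 and 1.78), H2aj, a histone variant gene (-1.04 and 1.15), and Hdhd2 (-1.001 and 1.29). In each of these 7 genes wild-type GMP was the highest array and wild-type MDP the lowest or second lowest. Slc12a3 went the other way, 1.95 in GMP and -1.07 in MDP.

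Probe sets outside the gene counts carried differences too. Of 5689 probe sets that reached the floor and have no single gene symbol, 96 were higher in Trib1-/- GMP by at least 2-fold and 62 lower, with a median difference of 0.18, against 0.002 in MDP. The split lay in the kind of probe set. Those not listed in the annotation, 5089 in number, had a median of 0.21 with 93 higher (1.83%) and 27 lower (0.531%). Those with several symbols, 600 in number, had a median of -0.20 with 3 higher and 35 lower. The 19891 probe sets with 1 symbol that reached the floor had a median of -0.06, with 109 higher (0.548%) and 654 lower (3.29%).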

How the results depend on the processing

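Genes at least 2-fold higher numbered 91 with no floor, 21 with a floor at the 75th percentile, 29 with lower values raised to the floor, 24 with probe sets averaged, 101 with centred arrays, 1 with 32 added to the linear value, 615 at 1.5-fold and 1 at 4-fold, against 56 as reported. Genes at least 2-fold lower numbered 242 with the 75th percentile floor, 235 centred, 15 with 32 added, 1536 at 1.5-fold and 6 at 4-fold, against 368. Chosen after seeing the data, genes at or above the floor on both GMP arrays gave 25 higher, and leaving out the shortest of 4 sets by gene span gave 172 lower. Without cross-hybridising probe sets there were 52 higher and 292 lower, with cyclic loess 48 and 404, and without the gene families 55 and 315. Of the 368 lower genes, 362 remained under cyclic loess and 235 when centred. Under these 11 settings that keep the 2-fold size, lower genes outnumbered higher ones throughout. With 32 added, the higher gene was Hspa1b, and the lower ones included Cpa3, Pfn1, Atp5e, Lgals1, Dut and Dusp1 but not Gzmb (-0.86), Mcpt8 (-0.87) or Siglecf (-0.49). Among the named genes' differences, 187 values moved by less than the SD between probe sets and 52 by more, 31 of the latter with 32 added and 15 with values raised to the floor. Coa3 was at -0.13 without cross-hybridising probe sets. Of the 19 lists with a median of -0.25 or lower, 13 moved by over 1.5 times under at least 1 setting, in 26 of 152 values, of which 0 lay above 0. With no floor the respiratory chain (-0.72) and the mitochondrial ribosome (-0.62) lay below the basophil and mast cell genes (-0.61), and without cross-hybridising probe sets S phase genes (-0.31) lay below mitosis genes (-0.25). No paired analysis was possible because each group has 1 array. For the same reason no array could be left out, and weak signals near the floor limit folds such as those of Gzmb and Hspa1a.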

Other observations

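Genes outside the groups of the report that have a known role in blood cells include those of stem and early progenitors. Of 16 used, 12 lay below 0 in Trib1-/- GMP, with a median of -0.27. At least 2-fold lower was 1 of the 16, where 3.16% of all genes used were. That one was Cd48, a surface marker gene of committed progenitors, which read 7.25, 6.10, 6.80 and 6.83 (the GMP arrays first, wild type before Trib1-/-, then MDP likewise), so Trib1-/- GMP was the lowest. Hoxa9 read 5.81, 5.24, 5.13 and 4.64, while Prom1, the CD133 gene, read 6.95, 7.09, 2.19 and 1.02, high on both GMP arrays only. Interferon response genes had a median of 0.12 over 11, with Ifi35 at least 2-fold lower (5.85, 4.43, 4.02 and 4.18) though its second probe set gave 0.00, and Mx1 the highest (3.35, 4.29, 4.48 and 4.75). Of 13 p53 target and apoptosis genes 0 were 2-fold apart, with Cdkn1a, the p21 gene, at 4.40, 3.73, 4.06 and 4.38.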
